A study of Mus musculus with 11 samples.

Results

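The genes described here are 32 genes of cholesterol and fatty acid synthesis, of their control by SREBP, and of the LXR branch that exports cholesterol. They were chosen by name, and a gene was measured where the platform annotation gave at least 1 probe set with that symbol and no other. By this rule 30 of the 32 were measured, among 18193 genes in all, through 69 of the 45101 probe sets on the array. No probe set listed under Acat2 or Nr1h2 alone was found, so these members were not analysed here. Each gene's value is the median of its probe sets.

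RNA came from splenic B cells of NOD/ShiLtJ (NOD) mice, which develop autoimmune diabetes spontaneously, and of NOD.NOR-Chr4/DvsJ (NR4) mice, a congenic strain that carries a segment of NOR chromosome 4 on the NOD background. All mice were females aged 6 weeks, and each of the 3 lots per strain pooled 7 to 8 spleens, from which B cells were enriched by depleting other cells magnetically. The cells of every group were cultured for 2 h, either without an added agent (unstimulated) or with goat F(ab')2 fragments against mouse IgM at 10 µg/ml, which cross-link the B cell receptor. The 11 arrays (Affymetrix Mouse Genome 430 2.0) hold 3 unstimulated and 2 stimulated cultures of NOD, and 3 unstimulated and 3 stimulated cultures of NR4. The arrays of a group are separate pools of animals, but both cultures of a strain came from the same lots.

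Cholesterol is built from acetyl-CoA through mevalonate and isoprenoid units to squalene, which is closed to lanosterol and trimmed to cholesterol. When membrane sterol is low, SCAP escorts the SREBP transcription factors out of the endoplasmic reticulum, where INSIG proteins otherwise hold them, and the released factors raise transcription of sterol and fatty acid synthesis genes. LXR receptors, which bind oxysterols, act on the other side of the balance and raise the efflux pumps ABCA1 and ABCG1 and the ubiquitin ligase MYLIP. Lymphocytes that have been triggered to grow need lipid for new membrane.

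The deposited signals are centred on 0 for each probe set, so a value says how an array stands against the median of the 11 arrays and not how abundant the transcript is. A value of 1 was taken as a 2-fold signal above that median (log2 scale). Responses are anti-IgM minus unstimulated and strain differences are NOD minus NR4. A gene was called where limma's moderated test, adjusted by the Benjamini-Hochberg method over the 18193 genes, gave a p below 0.05. The early response genes Egr2, Myc and Nr4a1 rose by 1.21, 1.46 and 1.43 on the log2 scale averaged over the strains, and all 3 were higher on each stimulated array than on any unstimulated array of the same strain. Zfp979 and Icam2 were higher in NOD by 5.24 and 3.83, and that of Zfp979 was the largest rise in NOD of all 18193 genes. Both were chosen with earlier results of these data known, so they are no independent check of the strain labels. Control probe sets are centred too, so their 3′ minus 5′ difference compares arrays and does not show which end gave more signal. On 1 array, replicate 1 of stimulated NR4 cells, it was 0.96 as the mean of β-actin and GAPDH. Over all 4 control transcripts the mean there was 0.29. On the other 10 arrays the β-actin and GAPDH difference ran from -0.08 to 0.29, and it moved with stimulation. It was -0.08 to -0.01 in unstimulated and 0.13 to 0.21 in stimulated NOD, without overlap, and -0.07 to 0.29 in unstimulated and 0.04 to 0.96 in stimulated NR4. Of the 6 unstimulated arrays, 5 lay below all 5 stimulated arrays, the exception being replicate 3 of unstimulated NR4. The part of this difference in the responses below was not tested. In RNA from bulk cells, fewer cells of a type and less RNA per cell cannot be told apart.

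Promoter sequence is shown for 4 genes. Abca1 and Mylip are LXR targets picked because they fell with stimulation, whereas Abcg1, also raised by LXR, stood at -0.11 and was not called. Idi1 rose, and Hmgcs1 was the only measured member with a classical sterol regulatory element in its promoter entry. Each line gives the 150 bases before the gene's start in RefSeq (GRCm38.p6), 5′ to 3′ on the gene's strand, with capitals marking matches to the motifs named after them. The positions are chr4:53159896-53160045 on the minus strand for Abca1, chr13:45389592-45389741 on the plus strand for Mylip, chr13:8885456-8885605 on the plus strand for Idi1 and chr13:119690201-119690350 on the plus strand for Hmgcs1.
Abca1: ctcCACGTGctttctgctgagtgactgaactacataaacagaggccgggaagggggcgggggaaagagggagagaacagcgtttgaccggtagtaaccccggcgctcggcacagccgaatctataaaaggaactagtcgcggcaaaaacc
Mylip: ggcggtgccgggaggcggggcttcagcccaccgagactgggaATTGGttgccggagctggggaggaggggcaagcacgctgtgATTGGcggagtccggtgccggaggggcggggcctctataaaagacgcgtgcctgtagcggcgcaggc
Idi1: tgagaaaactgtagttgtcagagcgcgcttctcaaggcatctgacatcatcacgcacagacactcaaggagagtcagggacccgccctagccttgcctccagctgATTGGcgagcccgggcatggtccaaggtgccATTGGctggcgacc
Hmgcs1: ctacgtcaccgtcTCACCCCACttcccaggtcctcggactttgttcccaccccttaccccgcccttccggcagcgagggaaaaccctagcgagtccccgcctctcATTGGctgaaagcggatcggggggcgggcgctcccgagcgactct
Both strands were searched for 4 motifs in entries of 300 bases, 250 before and 50 after the start, which 23 of the 30 measured members have. The sterol regulatory element TCACNCCAC was found in 1 of the 23 members, Hmgcs1, where it starts 137 bases before the gene, and in 1.44% of all 27025 genes with an entry. The E-box CACGTG was found in 6 of the 23 (Hsd17b7, Sc5d, Dhcr7, Scap, Insig1 and Abca1) against 8.09% of all genes, and in Abca1 it starts 147 bases before the gene. The CCAAT box, marked here as ATTGG, its match on the opposite strand, was found in 19 of the 23 against 41.1% of all genes. Idi1 has 2 of them, starting 45 and 14 bases before the gene. The LXR repeat was searched only as AGGTCA given again in the same direction after 4 bases of any kind. That exact form was found in 0 of the 23, but also in only 0.0148% of all genes. Repeats that depart from these letters were not searched for or marked, in Abca1 or elsewhere. The 0 therefore does not show that they are absent. No motif overlapped another in the stretches shown. Such matches describe letters and do not show that a factor binds.

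After 2 h of anti-IgM few of these genes were called, which does not show that the others were unchanged. Averaged over the strains, 3 of the 30 measured members were called, 1 higher and 2 lower, where 1.56% of all genes were called in either direction, 0.715% higher and 0.841% lower. Idi1, an enzyme of the mevalonate steps, rose, while the desaturase gene Scd2 and the cholesterol efflux pump gene Abca1 fell. The 27 others did not pass the test, and their changes went both ways. The median response of the 30 was 0.02 against 0.003 for all genes, and the median size without sign was 0.11 against 0.08. Of the 30, 17 (56.7%) were above 0, against 51% of all genes. At an unadjusted p below 0.05, 6 of the 30 (20%) passed, against 11.4% of all genes: Abca1, Scd2, Idi1, Fasn, Nsdhl and Insig1. For all 30 members the 95% interval of the averaged response lay within a 2-fold change either way, which also held for 98.5% of all genes.

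**Figure D1:**
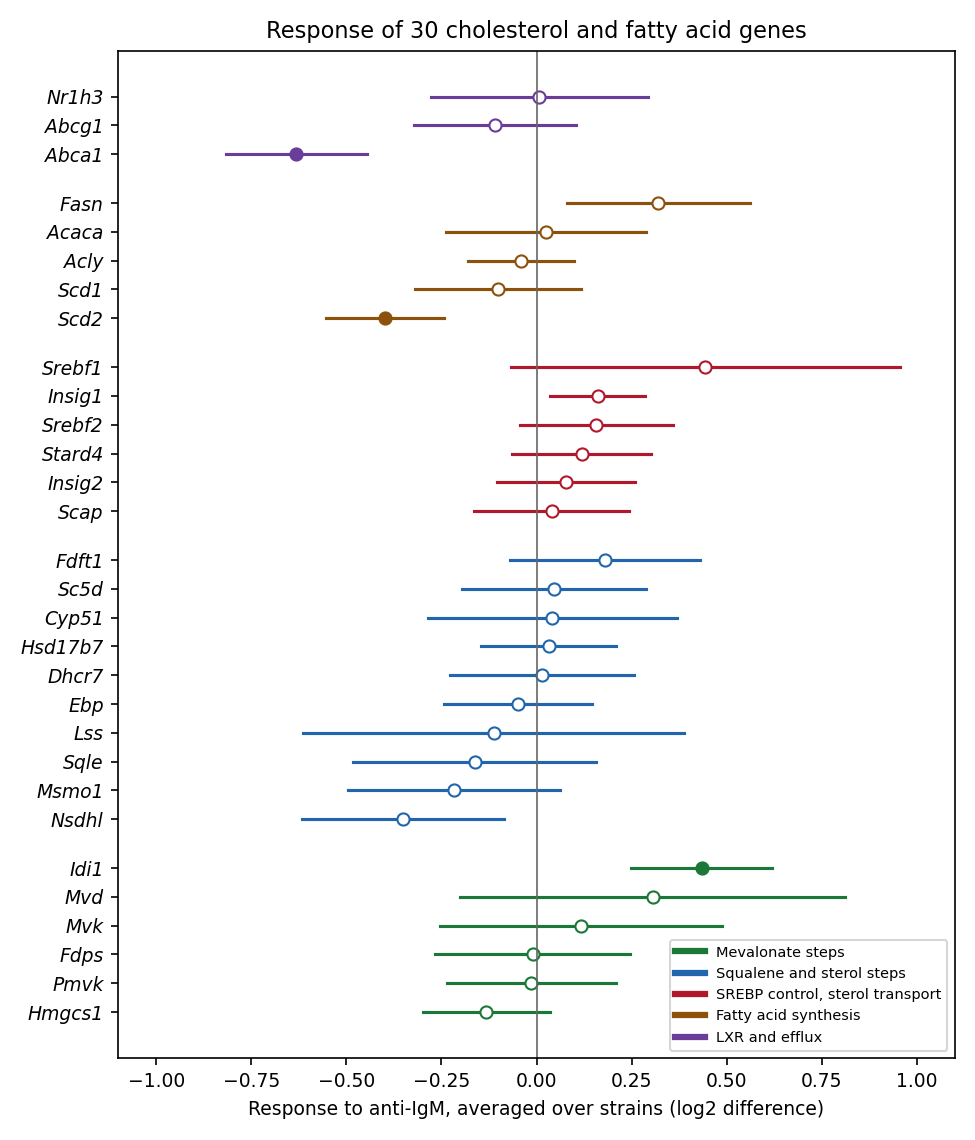
Response to anti-IgM of each of the 30 measured genes, averaged over NOD and NR4 (x axis, log2 difference), with 95% intervals as lines and colours for the role groups; filled points were called (adjusted p below 0.05) and open points were not. Abca1 at -0.63 and Scd2 at -0.40 lie lowest among the called genes, Idi1 lies at 0.43, and Srebf1 at 0.44 is open with a wide interval.

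Of the 6 measured genes of the mevalonate steps, 1 rose, none fell and 5 did not pass the test, with a group median of 0.05. Among all genes 0.715% were called higher and 0.841% lower. Idi1 encodes isopentenyl-diphosphate isomerase, which interconverts the isoprenoid building blocks. In NOD it read -0.03, -0.20 and 0.06 on the unstimulated arrays and 0.46 and 0.33 on the stimulated arrays. In NR4 it read -0.16, -0.28 and -0.17 without stimulation and 0.33, 0.02 and 0.28 with it. All stimulated arrays lay above all unstimulated arrays of their own strain, and replicate 2 of stimulated NR4 was the lowest of the stimulated arrays. The averaged response was 0.43 (SE 0.084, 95% interval 0.25 to 0.62), a 1.35-fold rise, with limma adjusted p = 0.031. It was 0.46 in NOD and 0.41 in NR4, neither called alone, with adjusted p of 0.39 and 0.20. Leaving out any 1 of 10 arrays, every one but replicate 2 of stimulated NR4, ended the call, with adjusted p from 0.054 to 0.13 and a change between 0.40 and 0.47. The 2 probe sets of Idi1 gave 0.62 (1423804_a_at) and 0.25 (1451122_at), both upward and neither called on its own. On replicate 1 of stimulated NR4 they read 0.89 and -0.23, the highest and the lowest value of each over all arrays. The gene's 0.33 there is the median of these discordant readings. In 1451122_at the NR4 conditions overlapped.

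The other mevalonate genes lay on both sides of 0. Hmgcs1, the synthase that makes HMG-CoA, changed by -0.13, Pmvk, phosphomevalonate kinase, by -0.01, and Fdps, which makes farnesyl diphosphate, by -0.01. Mvk, mevalonate kinase, had an averaged response of 0.12 that was -0.09 in NOD and 0.33 in NR4. Mvd, the decarboxylase that follows the kinases, had 0.31 (SE 0.23, adjusted p = 0.77), from -0.02 in NOD and 0.63 in NR4. Its arrays spread widely, from -0.40 to 0.45 in unstimulated NOD and from 0.03 to 0.92 in stimulated NR4, and its residual SD of 0.44 exceeded that of 95.8% of all genes. Leaving out replicate 1 or 2 of stimulated NOD moved the averaged response of Mvd to 0.06 or 0.55.

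None of the 10 genes from squalene to cholesterol was called in either direction, and the group median was -0.02. Fdft1, squalene synthase, had the highest averaged response of the group, 0.18, and Nsdhl, a sterol dehydrogenase of the C4 demethylation step, the lowest, -0.35 (SE 0.12, limma adjusted p = 0.24). Nsdhl read 0.07, 0.19 and 0.46 in unstimulated NOD and 0.07 and 0.00 in stimulated NOD. It read 0.02, -0.04 and -0.01 in unstimulated NR4 and -0.89, -0.27 and -0.37 in stimulated NR4. The stimulated NR4 arrays lay below all others, whereas in NOD the 2 conditions overlapped. The lowest reading, -0.89, came from the array with the high 3′ to 5′ difference, and without that array the averaged response was -0.26 (adjusted p = 0.23). On that array Msmo1, the methyl sterol oxidase, and Ebp, a sterol isomerase, were also the lowest of the 11 at -0.49 and -0.36. So was the called gene Scd2, at -0.41. Lss, Srebf1, Srebf2, Dhcr7 and Scap were the highest, at 0.71, 1.04, 0.37, 0.36 and 0.21. The part of RNA quality in these values was not tested.

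The remaining sterol genes were Sqle, squalene epoxidase, at -0.16, Lss, lanosterol synthase, at -0.11, Cyp51, lanosterol demethylase, at 0.04, and Msmo1 at -0.22. Hsd17b7 stood at 0.03, Ebp at -0.05, Sc5d, a sterol desaturase, at 0.05, and Dhcr7, which makes cholesterol in the last step of a branch, at 0.015. By gene, the smallest limma adjusted p among these 8 was 0.63. Of these, Lss varied most between replicates, from -0.68 to 0.71 over the 3 stimulated NR4 arrays. The 3 probe sets of Cyp51 differed, at -0.04 (1422533_at, SE 0.16), -0.28 (1422534_at, SE 0.23) and 0.365 (1450646_at, SE 0.085), and none was called. In 1450646_at (limma adjusted p = 0.088 over all probe sets) every stimulated array lay above every unstimulated array.

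The 6 genes of SREBP control and sterol transport all had an averaged response above 0, with a median of 0.14, but none was called. Insig1, which retains SCAP in the endoplasmic reticulum and is itself an SREBP target, had the smallest p of the group. It read -0.02, -0.03 and -0.05 in unstimulated NOD, 0.12 and 0.18 in stimulated NOD, -0.06, 0.00 and -0.04 in unstimulated NR4, and 0.09, 0.11 and 0.12 in stimulated NR4. Every stimulated array lay above every unstimulated array, in both strains. The response was small at 0.16 (SE 0.056, 95% interval 0.04 to 0.29, limma adjusted p = 0.25). The residual SD of Insig1 was 0.03, lower than in all but 0.11% of genes, and limma's moderation widens the error of so quiet a gene.

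Among the same genes Srebf1, which encodes the SREBP form tied most to fatty acid synthesis, had the highest averaged response of all 30 members, 0.44, with a 95% interval from -0.07 to 0.96. It read 0.16, -0.38 and -0.40 in unstimulated NOD and 0.68 and 0.00 in stimulated NOD. In NR4 the readings were -0.05, -0.19 and 0.20 without stimulation and 1.04, 0.17 and -0.23 with it. The conditions overlapped in both strains, the array with the high 3′ to 5′ difference gave the 1.04, and without it the response of Srebf1 was 0.27 (adjusted p = 0.66). Srebf2, the form tied most to cholesterol synthesis, stood at 0.16, Stard4, a cytosolic sterol carrier, at 0.12, Insig2 at 0.08 and Scap at 0.04.

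Of the 5 fatty acid synthesis genes, 1 fell and 4 did not pass the test, where 0.841% of all genes were called lower. Scd2 encodes a stearoyl-CoA desaturase, which introduces the double bond of oleate and palmitoleate. It read 0.00, 0.18 and 0.25 in unstimulated NOD and -0.22 and -0.19 in stimulated NOD. It read 0.16, 0.11 and 0.01 in unstimulated NR4 and -0.41, -0.30 and -0.35 in stimulated NR4. All 5 stimulated arrays lay below all 6 unstimulated arrays. The averaged response was -0.40 (SE 0.070, 95% interval -0.55 to -0.24), a fall to 0.759 of the unstimulated signal, with limma adjusted p = 0.023. It was -0.35 in NOD (adjusted p = 0.48) and -0.45 in NR4 (adjusted p = 0.080). Its 3 probe sets gave -0.46 (1415822_at, called, adjusted p = 0.037), -0.53 (1415823_at) and -0.30 (1415824_at). The call was lost without any 1 of 6 arrays (replicates 2 and 3 of unstimulated NOD, both stimulated NOD arrays, and replicates 1 and 2 of unstimulated NR4), with adjusted p from 0.061 to 0.099.

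The related desaturase gene Scd1 changed by -0.10, and no call was made for it. Fasn, fatty acid synthase, had a response of the opposite sign to Scd2, 0.32 (SE 0.11, limma adjusted p = 0.24). It read -0.09, -0.47 and -0.14 in unstimulated NOD, 0.21 and 0.09 in stimulated NOD, -0.20, -0.40 and 0.09 in unstimulated NR4 and 0.19, 0.00 and 0.07 in stimulated NR4. The arrays were separate in NOD and overlapped in NR4. Acly, which supplies cytosolic acetyl-CoA, and Acaca, acetyl-CoA carboxylase, stood at -0.04 and 0.03.

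Abca1 showed the largest change of the 30. It encodes the membrane pump that passes cholesterol and phospholipid to apolipoprotein A-I. In NOD it read 0.34, 0.27 and 0.26 without stimulation and -0.21 and -0.13 with it. In NR4 it read 0.38, 0.28 and -0.02 without stimulation and -0.51, -0.69 and -0.56 with it. All stimulated arrays lay below all unstimulated arrays, and the stimulated NR4 arrays were the lowest. The averaged response was -0.63 (SE 0.084, 95% interval -0.82 to -0.45), a fall to 0.646 of the unstimulated signal, with limma adjusted p = 0.0061. Its 3 probe sets gave -0.83 (1421839_at, called, adjusted p = 0.019), -0.37 (1421840_at) and -0.42 (1450392_at). Replicate 3 of unstimulated NR4, which read -0.02, had the highest 3′ to 5′ difference of the unstimulated arrays, and without it the response of Abca1 was -0.69 (adjusted p = 0.0026). Without replicate 1 of stimulated NR4 it was -0.65 (adjusted p = 0.013). The corresponding values were -0.42 and -0.38 for Scd2 (adjusted p = 0.035 and 0.042) and 0.44 and 0.40 for Idi1 (adjusted p = 0.060 and 0.058).

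Taken alone, the NR4 response of Abca1 was -0.80 (SE 0.11, limma adjusted p = 0.016), the only member called in NR4, where 0.412% of all genes were called. That call was lost without replicate 1 or 2 of unstimulated NR4 or replicate 2 of stimulated NR4, with adjusted p from 0.056 to 0.076. It was also lost after quantile normalization (0.065), among the genes with the larger spread (0.053) and with only the NR4 arrays fitted (0.19), 6 of 19 alternatives in all. The NOD response was -0.46 (SE 0.12, adjusted p = 0.38), and 0 of the 30 members were called in NOD by limma, where 0.115% of all genes were, although 4 of the 30 had an unadjusted p below 0.05, against 5.15% of all genes. Abcg1, a related efflux pump, stood at -0.11 averaged over the strains, and Nr1h3, which encodes LXRα, at 0.01.

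Abca1 is also expressed by macrophages. The 11 measured of 12 monocyte and macrophage markers included none called with stimulation, and their median ran from -0.14 to 0.09 over the unstimulated and from -0.02 to 0.145 over the stimulated arrays. Of 11 measured pan-B cell markers, 5 fell with stimulation and none rose, where 0.841% of all genes were called lower and 0.715% higher. Their median ran from -0.10 to 0.24 over the unstimulated and from -0.44 to -0.06 over the stimulated arrays. The lists for T cells, dendritic cells and plasma cells each had 1 member called higher and the endothelial and stromal list 1 called lower, while the NK, neutrophil, erythroid and platelet lists had none. Because the signals are centred, they cannot show whether the defining markers of any cell type, B cells included, were present. The part of these lists in the fall of Abca1 or Scd2 was not tested.

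**Figure D2:**
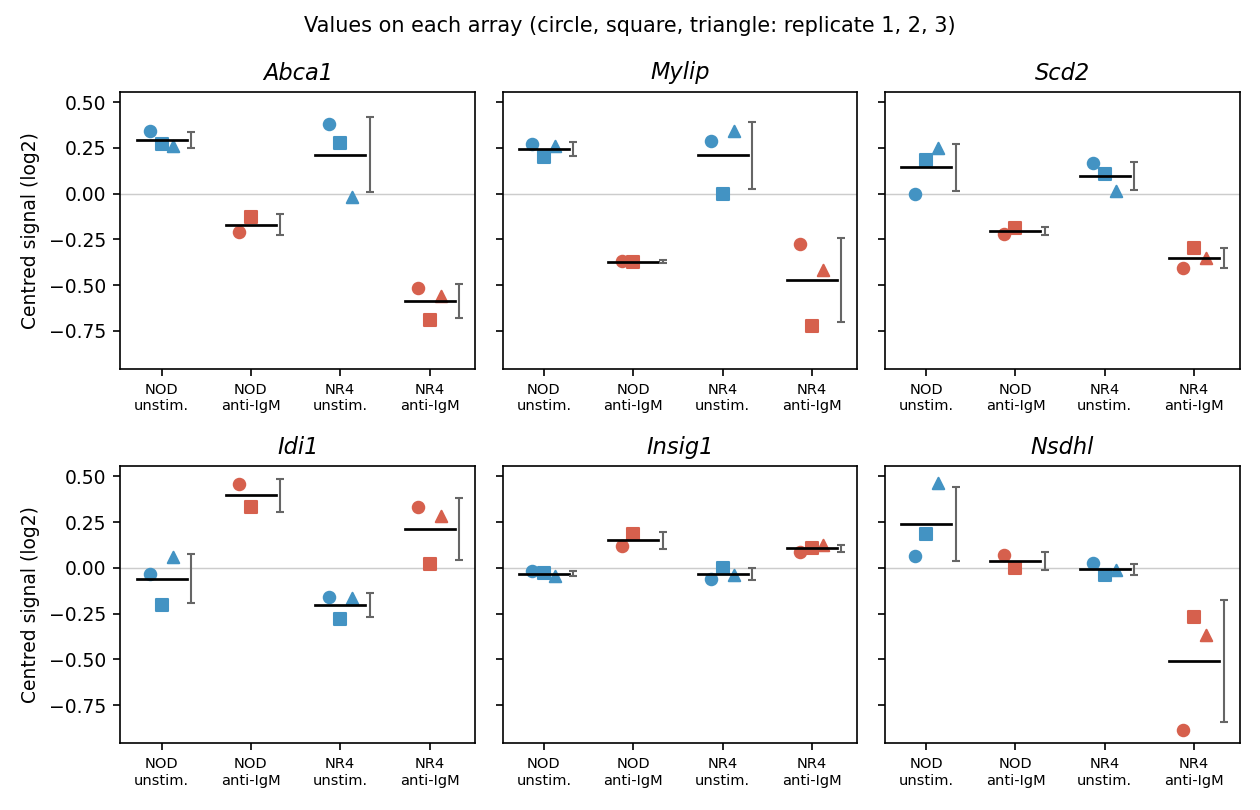
Centred signal (y axis, log2) of 6 genes on each array by group (x axis), with blue for unstimulated and red for anti-IgM, symbols for the replicate number, black bars for group means and grey lines for the SD beside them. For Abca1 and Scd2 all stimulated arrays lie below all unstimulated arrays, Insig1 shows a small and tight rise, and the lowest Nsdhl point, -0.89, is replicate 1 of stimulated NR4.

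Arrays of both strains did not overlap between the conditions, in the same direction, for 2 of the 30 members upward (Idi1 and Insig1) and 2 downward (Scd2 and Abca1). Over all genes the shares were 2.08% upward and 3.56% downward. The probe set as the unit gave 0 of the 69 probe sets of these genes higher and 2 lower, where 1.01% of all 45037 probe sets other than controls were called in either direction. Of the 21 members with several probe sets, 13 had all of them on the same side of 0.

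The wider pathway was described with 40 further genes of lipid synthesis, uptake and transport, 37 of them measured. Of these, 0 rose and 1 fell with stimulation averaged over the strains, against 0.715% higher and 0.841% lower among all genes. An unadjusted p below 0.05 was reached by 7 of the 37 (18.9%), against 11.4%, and the median response was -0.0021. The gene that fell was Mylip, the LXR target whose product marks lipoprotein receptors for degradation. In NOD it read 0.27, 0.20 and 0.26 without stimulation and -0.37 and -0.38 with it, and in NR4 0.29, 0.00 and 0.34 without and -0.28, -0.73 and -0.42 with it. The conditions did not overlap in either strain. The averaged response was -0.65 (SE 0.098), a fall to 0.638 of the unstimulated signal, with limma adjusted p = 0.012. In NR4 alone the adjusted p was 0.065, and 0.024 with the replicate number as a block. Without either stimulated NOD array the averaged adjusted p was 0.050 or 0.064.

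Npc1 and Rnf139, of the same wider list, had the next smallest p. For Npc1, which carries cholesterol out of lysosomes, the averaged response was 0.27 (SE 0.075, limma adjusted p = 0.13). For Rnf139, a ubiquitin ligase of sterol control, it was -0.33 (SE 0.11, adjusted p = 0.24). Npc1 was higher on every stimulated array than on any unstimulated array, while Rnf139 overlapped between conditions in NR4.

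Whether the response differed between the strains was tested by the interaction of strain and stimulation. None of the 30 members was called by limma, nor was any of the 18193 genes, a share of 0%. At an unadjusted p below 0.05, 1 of the 30 members (3.33%) passed, against 1.4% of all genes. That member was Fdft1, with a response of -0.09 in NOD and 0.45 in NR4 (difference -0.54, 95% interval -1.04 to -0.04, unadjusted p = 0.037, adjusted p = 1). For Abca1 the difference of the responses was 0.34 (95% interval -0.03 to 0.71, unadjusted p = 0.069, adjusted p = 1). For Scd2 it was 0.10 (-0.21 to 0.41) and for Idi1 0.04 (-0.33 to 0.41). The widest interval was that of Srebf1, 0.21 (-0.82 to 1.23).

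**Figure D3:**
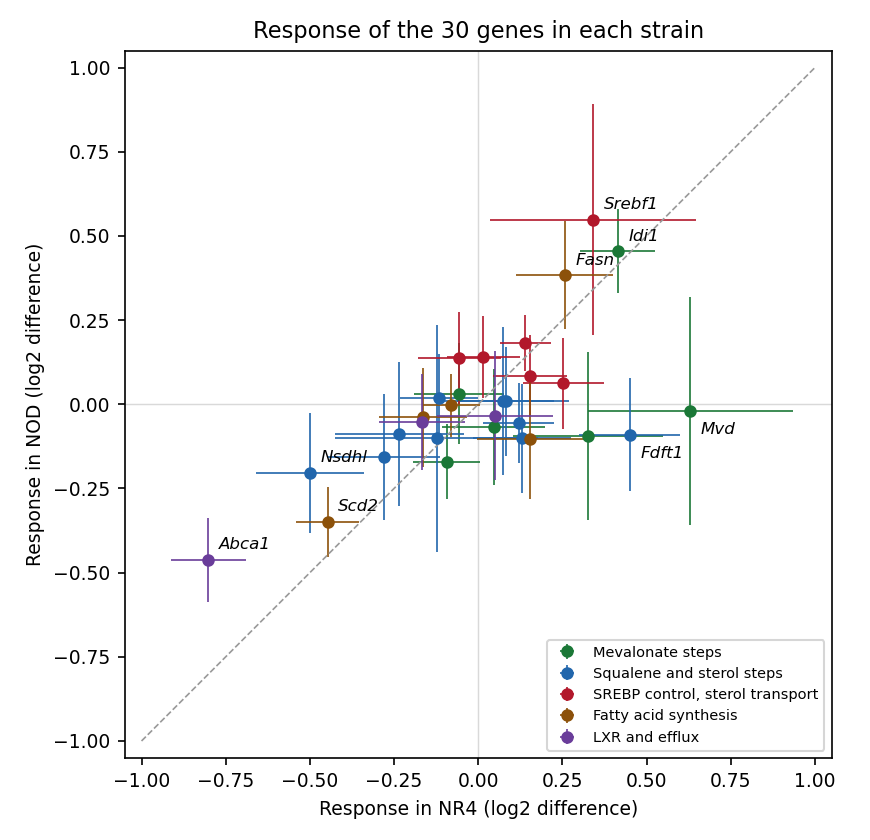
Response of the 30 genes in NOD (y axis) against NR4 (x axis), both as log2 differences with SE bars, coloured by role; the dashed line marks equal responses. Abca1 at -0.80 in NR4 and -0.46 in NOD and Scd2 lie lower left, Idi1 lies close to the line, and Mvd and Fdft1 lie to the right of it.

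Strain differences were called for few genes of any kind, and for none of these members. Averaged over both conditions, 0 of the 30 members were called by limma, where 0.121% of all genes were, and 2 of the 30 (6.67%) had an unadjusted p below 0.05, against 4.39%. The median difference was 0.04 against 0.001 for all genes, and the range was -0.18 to 0.40. Of the 30 members, 23 (76.7%) were higher in NOD, against 50.6% of all genes. No member was called in unstimulated cells, where 0.0605% of all genes were called, or in stimulated cells, where 0.0495% were; 0 and 2 members had an unadjusted p below 0.05, against 1.54% and 4.34% of all genes.

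Nsdhl had the largest strain difference, 0.40 higher in NOD (SE 0.12, limma unadjusted p = 0.0078, adjusted p = 0.72). Its NOD arrays lay above its NR4 arrays within each condition, the only member of the 30 for which this held, while 1.01% of all genes were separate in that direction. The difference was 0.30 without the array with the high 3′ to 5′ difference. Abca1, which lies on chromosome 4, the chromosome that carries the NOR segment, was 0.25 higher in NOD on average (SE 0.084, adjusted p = 0.85) and 0.42 higher in stimulated cells (adjusted p = 0.90). Whether Abca1 lies within that segment was not examined.

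The other role groups had smaller or less certain strain differences. Scd1 read -0.04, 0.14 and 0.26 in unstimulated NOD, 0.09 and 0.08 in stimulated NOD, -0.09, -0.19 and 0.20 in unstimulated NR4 and -0.19, -0.36 and -0.02 in stimulated NR4. The strains overlapped without stimulation and were separate with it, and the averaged difference was 0.21 (SE 0.098, limma adjusted p = 1). Scap, the SREBP escort, read -0.11, -0.14 and -0.30 in unstimulated NOD, 0.05 and -0.15 in stimulated NOD, 0.17, 0.14 and -0.07 in unstimulated NR4 and 0.21, 0.04 and -0.18 in stimulated NR4. It was lower in NOD by -0.17 on average (adjusted p = 1), separate between strains only without stimulation. Idi1 was 0.16 higher in NOD (SE 0.084, adjusted p = 1).

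In the wider list 1 of the 37 genes differed between the strains averaged over both conditions, against 0.121% of all genes. Lrp8, a lipoprotein receptor gene on chromosome 4, read -0.27, -0.44 and -0.42 in unstimulated NOD and -0.17 and -0.34 in stimulated NOD. It read 0.36, 0.34 and 0.00 in unstimulated NR4 and 0.52, 0.88 and 0.43 in stimulated NR4. The strains did not overlap in either condition, and the difference was -0.74 (SE 0.11), 0.599 of the NR4 signal in NOD, with limma adjusted p = 0.033. Leaving out 1 of 8 arrays (any NOD array, replicate 1 or 2 of unstimulated NR4, or replicate 1 of stimulated NR4) took the adjusted p to between 0.068 and 0.21.

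A separate pattern followed the replicate number rather than strain or stimulation, and it was picked out after the values were seen. The Hsd17b7 probe set 1448865_at read -1.32, -0.94, -1.31 and -1.40 on the 4 arrays numbered 1. On the other 7 arrays it ran from -0.48 to 0.71. Arrays numbered 2 and 3 exceeded those numbered 1 by 1.20 and 1.70 within groups (limma F = 47.4, adjusted p = 0.0085 over all probe sets, of which 5.89% were called by replicate number). The other 3 probe sets of Hsd17b7 did not pass this test. In all, 3 of the 69 probe sets of the members (4.35%) did. The others were 1450392_at of Abca1, where arrays numbered 2 and 3 differed from those numbered 1 by -0.42 and -0.73 (adjusted p = 0.042), and 1442885_at of Scap, where they differed by -0.13 and -0.61 (adjusted p = 0.030). That Abca1 probe set is the one of its 3 with the least certain response to anti-IgM (SE 0.21). By gene, 0 of the 30 members and 6.76% of all genes were called by replicate number.

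**Figure D4:**
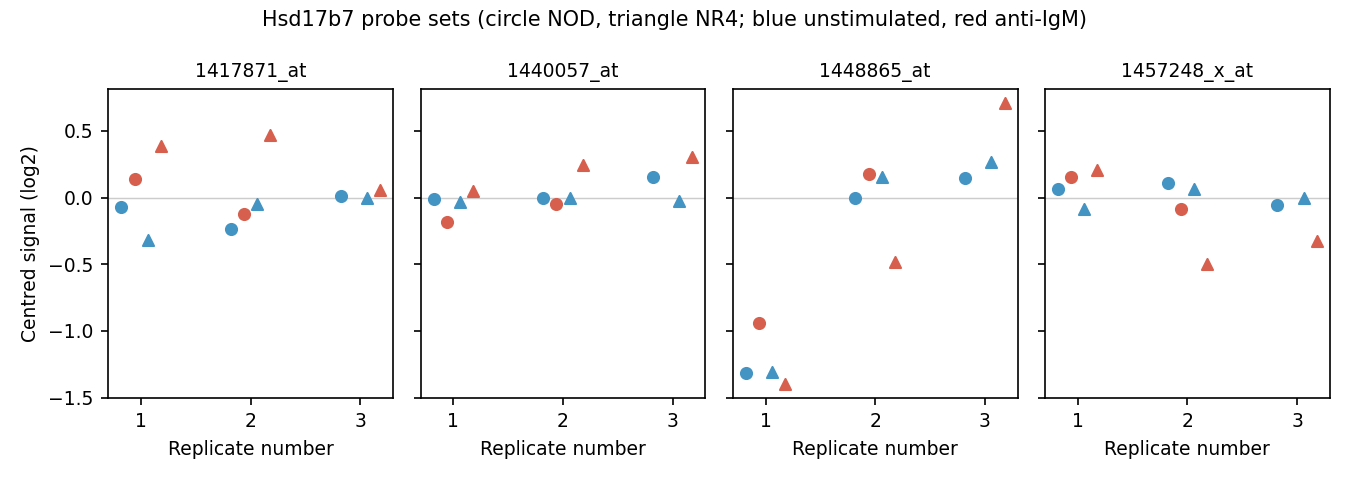
Centred signal (y axis, log2) of the 4 Hsd17b7 probe sets against replicate number (x axis), with circles for NOD, triangles for NR4, blue for unstimulated and red for anti-IgM. In 1448865_at the 4 arrays numbered 1 lie at -0.94 or lower and the other 7 at -0.48 or higher, and the other 3 probe sets do not divide by number.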

How the data were processed

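RNA of 11 cultures was hybridised after 1 cycle of amplification. The deposited values are RMA summaries, per the submitters' processing notes, which name no version. They were taken as log2 values deposited by the authors, since the log base is not stated, and 45101 of 45101 probe sets have a median of exactly 0 over the 11 arrays. Centring per probe set keeps differences between arrays and removes levels and detection calls. Precision is limited by how many arrays there are.

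Probe sets with 1 gene symbol in the platform annotation (34945, without the 64 controls) were reduced to a median per gene. In limma 3.58.1 (R 4.3.3), 1 linear model with 4 group means took in the 11 arrays and left 7 residual degrees of freedom, with empirical Bayes moderation and two-sided Benjamini-Hochberg adjusted p-values over 18193 genes in each of 7 comparisons. The p-values set each difference against the spread between arrays within groups, in which pools, cultures and arrays all differ. Both cultures of a strain came from the same lots, and the main fit does not use this pairing for the responses. The steps were tested on simulated data.

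Groups and replicate numbers come from the sample titles. Pairing by number was checked from correlations of deviations from group means. These were 0.59, 0.207 and 0.512 between unstimulated NOD and NR4 and 0.329, 0.219 and 0.473 between the NR4 conditions. All were positive, so a fit with the number as a block was also made. Lots belong to 1 strain, so a number shared between strains is not a shared lot. What the number marks is not stated in the titles, and arrays of unlike number were not compared. Comparisons with stimulated NOD have only 2 pairs (0.629 and 0.118 against unstimulated NOD, 0.366 and -0.121 against those of NR4), too few to settle whether numbers pair there.

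The members, the gene lists and the marker lists were chosen with earlier results of these data known. Values on every array are given for called members and, in each role group, for the member with the smallest p in the averaged response and strain difference. Srebf1 and Fasn were added after their values were seen. Of the wider list, called genes and those with the next smallest p are named. Promoters are RefSeq entries of GRCm38.p6. Alternatives covered the block, quantile normalization, the choice of probe sets, a filter on spread, the arrays fitted, moderation, array weights and each array left out.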

Additional observations from a re-analysis of the deposited data

Results flagged for a closer look

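Replicate 1 of stimulated NR4 cells stood apart in control probe sets that enter no comparison. The 3′ minus 5′ difference of the centred signals, the mean of β-actin and GAPDH, was 0.96 on this array, above the highest unstimulated array at 0.29. Over all 4 control transcripts its mean was 0.29, closer to the next highest arrays at 0.20 (replicate 3 of either NR4 group). Without it, 2 of the 30 members were called in the averaged response. With all 11 arrays 3 members and 1.56% of all genes were called. The share of all genes called without this array is not given here. Abca1 stayed at -0.65 (limma adjusted p = 0.013) and Scd2 at -0.38 (adjusted p = 0.042), and Idi1 stood at 0.40 (adjusted p = 0.058).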

How the results depend on the processing

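Of the 3 members called in the averaged response, Abca1 was called under all 18 alternatives, with limma adjusted p between 0.0019 and 0.041. Idi1 was called under 5 of 18 (adjusted p 0.0076 to 0.27) and Scd2 under 11 of 18 (0.0074 to 0.18). The count of called members was 3 with the replicate block, quantile normalization, robust moderation and array weights, and 2 with the lowest-numbered probe set or without _s_at, _x_at and _a_at probe sets. It was 1 among the genes with the larger spread, where 16 members were tested, and 1 to 3 with 1 array left out. Testing each probe set on its own, chosen after seeing the data, gave 2 members with a called probe set. These were 2 of 69 member probe sets, against 1.01% of all probe sets. The NR4 count was 0 after quantile normalization, 0 among genes with the larger spread, 0 with only the groups compared, and 0 to 1 with 1 array left out. In the other 5 comparisons it was 0 under every alternative run. Over all genes the averaged response gave 283 calls, 558 with the replicate block, 506 with array weights and 76 to 273 with 1 array left out. The block changed no call among the members. Of the wider list, only Mylip, Npc1, Rnf139 and Lrp8 were followed under alternatives. Among these the block changed 1 call, that of Mylip in NR4. Acaca changed sign with the lowest-numbered probe set, from 0.03 to -0.22 (adjusted p = 0.65). Idi1 gave 0.62 (adjusted p = 0.079) with that choice and 0.25 (0.27) without _s_at, _x_at and _a_at probe sets. The strain difference of Lrp8 was -0.56 with the lowest-numbered probe set and was not called. The cause of these changes was not tested. Of 779 values for single genes under alternatives, 42 that were not called differed in sign from the main value, also without a call. Signal over background cannot be read from centred values, so transcripts near background could not be set aside.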
